A study of Mus musculus with 4 samples.

Results

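Arrest of leukocytes on the aortic endothelium is carried out by a short list of surface molecules and chemokines, and 8 genes of that list were examined: *Sele*, *Selp*, *Vcam1*, *Icam1*, *Icam2*, *Ccl2*, *Cx3cl1* and *Cxcl12*. They were chosen by symbol for this role, with earlier results of these data known, and their rows were read from the UMI count tables of all 4 plates of the series. Of the 8 genes, 7 had a row in at least 1 plate, and *Ccl2* was not analysed here. The cells were CD31+ CD45- TO-PRO-3- cells of the mouse aorta, that is, live cells that carry the endothelial surface protein PECAM1 and not the leukocyte protein PTPRC, sorted 1 per well into a plate of 384 wells per mouse and sequenced by SORT-seq, a form of CEL-Seq2 that counts the 3′ ends of transcripts with unique molecular identifiers (UMIs). Mice labelled Epas1 EC-KO carried floxed *Epas1* on both alleles and a tamoxifen-inducible Cre driven by the endothelial *Cdh5* promoter, and their littermates labelled Epas1 EC-WT carried the same floxed alleles without Cre. Each group held 2 mice. All 4 received tamoxifen in 5 daily injections at 6 weeks of age, and the aortas were taken 2 weeks later, so that the drug and the floxed alleles were shared by both groups. Cre under the *Cdh5* promoter acts in endothelial cells (ECs) only, and other cells in the sort would keep the gene. The comparison of the groups asked how endothelial *Epas1*, which encodes the hypoxia-inducible factor EPAS1 (HIF-2 alpha), bears on gene expression in aortic endothelium.

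A leukocyte leaves the blood in steps. The selectins, E-selectin (*Sele*) and P-selectin (*Selp*), catch it and let it roll. Chemokines held on the endothelial surface then activate its integrins, and these bind VCAM1, ICAM1 and ICAM2 so that the cell stops and crawls to a junction. P-selectin is stored in Weibel-Palade bodies and can be brought to the surface within minutes, E-selectin has to be transcribed first, ICAM2 is present on resting endothelium, and VCAM1 and ICAM1 rise with cytokines and at sites of disturbed flow, where atherosclerotic plaques begin. CX3CL1 (fractalkine) is both a chemokine and an adhesion molecule anchored in the membrane, CXCL12 attracts cells with the receptor CXCR4, and CCL2 attracts monocytes.

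The genes lie on 6 chromosomes of GRCm38 (GENCODE M21). *Sele* (chr1:164048234-164057677, plus strand) and *Selp* (chr1:164115264-164150026, plus strand) are neighbors, 57586 bases apart. The others are *Vcam1* (chr3:116109949-116129688, minus strand), *Cxcl12* (chr6:117168535-117181367, plus strand), *Cx3cl1* (chr8:94772009-94782427, plus strand), *Icam1* (chr9:21015985-21028817, plus strand), *Ccl2* (chr11:82035571-82037453, plus strand) and *Icam2* (chr11:106377656-106388075, minus strand). The 7 genes with a row were listed by the authors on the chromosome that this annotation gives. The 250 bases upstream of the RefSeq start (GRCm38.p6) were held for 5 genes, *Sele*, *Selp*, *Cxcl12*, *Cx3cl1* and *Icam1*; *Vcam1*, *Icam2* and *Ccl2* are named only. Both strands were searched for ACGTG, the core letters of hypoxia response elements, for GCGTG, another form of that core, for GGANNTTCC, letters found in many NF-kB sites, and for TATAAA, the TATA box. Sequences are shown for the neighboring selectin genes, whose levels below lie far apart, and for *Icam1*, which shares the GGANNTTCC letters with *Sele*. They run from the base 250 upstream to the base next to the start, at chr1:164047984-164048233 for *Sele*, chr1:164115014-164115263 for *Selp* and chr9:21015690-21015939 for *Icam1*, all on the plus strand, and capitals mark the letters found.
Sele: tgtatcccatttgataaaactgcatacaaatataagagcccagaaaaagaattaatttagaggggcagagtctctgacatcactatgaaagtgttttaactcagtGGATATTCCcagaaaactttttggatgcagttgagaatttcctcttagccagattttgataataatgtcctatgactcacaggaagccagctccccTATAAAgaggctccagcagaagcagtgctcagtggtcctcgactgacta
Selp: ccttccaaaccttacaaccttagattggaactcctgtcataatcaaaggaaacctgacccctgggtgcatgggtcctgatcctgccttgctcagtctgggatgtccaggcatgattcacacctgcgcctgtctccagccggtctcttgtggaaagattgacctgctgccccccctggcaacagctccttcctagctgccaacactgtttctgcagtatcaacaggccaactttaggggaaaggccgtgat
Icam1: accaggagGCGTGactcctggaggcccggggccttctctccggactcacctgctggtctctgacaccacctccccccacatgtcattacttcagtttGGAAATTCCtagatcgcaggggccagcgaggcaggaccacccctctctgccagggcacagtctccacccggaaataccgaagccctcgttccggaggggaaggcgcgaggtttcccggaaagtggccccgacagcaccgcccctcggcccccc

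GGANNTTCC was present in *Sele* (145 to 137 bases upstream) and *Icam1* (153 to 145 bases upstream), and in 3.59% of the 32851 RefSeq promoter windows of the same length. TATAAA was present in *Sele* (49 to 44 bases upstream) and, next to the RefSeq start, in *Cx3cl1*, and in 12.4% of all windows. The *Cx3cl1* window, chr8:94771930-94772179, runs past the GENCODE start at 94772009, so its TATAAA lies inside the gene as placed above. GCGTG was present in *Icam1* (242 to 238 bases upstream) and in 28.2% of all windows. ACGTG was in none of the 5 windows and in 16.6% of all windows. A match is a run of letters and not a bound site, and its absence says only that the letters are not in this window. No 2 of these motifs overlapped in the printed sequences.

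Of 1536 wells, 441 were kept as cells (157 and 98 in the mice labelled EC-KO 1 and 2, and 114 and 72 in those labelled EC-WT 1 and 2), each with at least 1000 UMIs outside spike-ins and mitochondrial genes and at most 25% of its UMIs on mitochondrial genes. The kept cells held from 566088 to 1088901 UMIs per mouse, with medians of 3779 to 7419 per cell, and 3 UMIs, the limit that a count of 0 allows, came to 2.76 to 5.30 counts per 1000000 UMIs (CPM). The plates share their 384 well barcodes, which name a plate position and not a cell. *Pecam1* was measured at 4407 to 6045 CPM, *Ptprc* at 1 UMI in all, and the immune list at 2 to 5 UMIs per mouse from 5 of its 10 genes. In 24 cells (13, 6, 3 and 2, in the order of the mice above) the smooth muscle list had more UMIs than the endothelial list; they are called smooth muscle-rich. *Epas1* was measured at 2930 and 3148 CPM in the mice labelled EC-KO and at 3324 and 2351 CPM in those labelled EC-WT, so the targeted gene was not lower in the mice labelled EC-KO, and 3′ tags outside the deleted part do not check the deletion. The study reports deletion of *Epas1* in such mice, by quantitative PCR of endothelial RNA and by en face staining, measures that are not part of these counts. It also describes fewer analysed cells from knockout than from control mice, whereas here more kept cells came from the plates labelled EC-KO. The direction of every difference between groups below therefore rests on labels that these data could not check, and the groups are named as the labels name them.

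**Figure D1:**
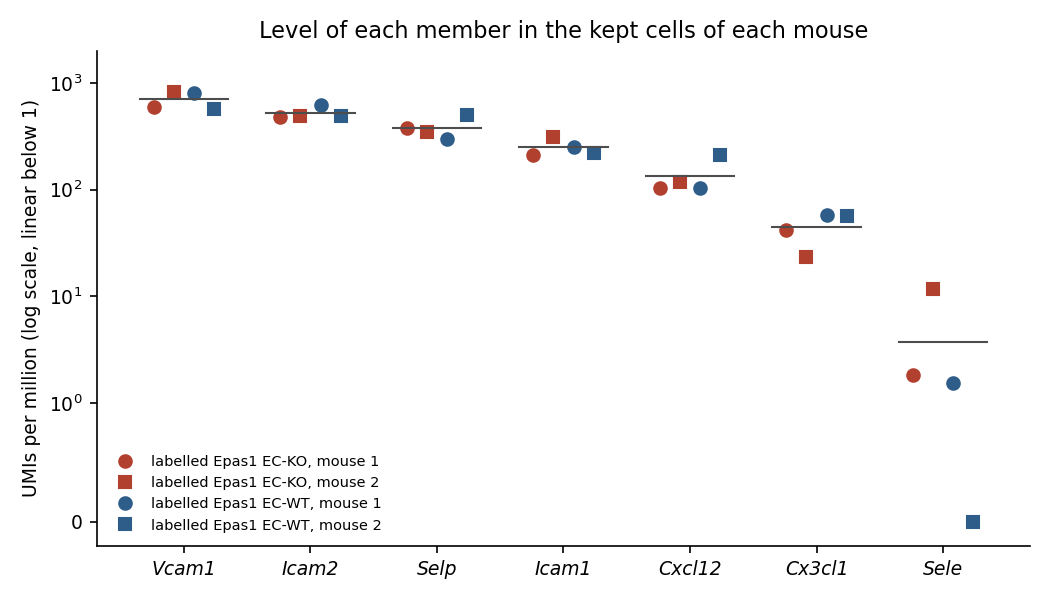
Level of 7 of the 8 genes in the kept cells of each of 4 mice, in UMIs per 1000000 (CPM) on a log axis that is linear below 1; points are mice, circles mouse 1 and squares mouse 2 of each label, and lines are means over the 4 mice. *Vcam1* lies highest, at 571 to 831 CPM, and *Sele* lowest, at 0 to 11.7 CPM.

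*Vcam1* and *Icam2*, which act in firm arrest, were the most abundant of the genes by mean UMI level, whereas from read counts *Selp* (437 CPM) lay above *Icam2* (367 CPM) and below *Vcam1* (452 CPM). *Vcam1*, the endothelial ligand of the integrin VLA-4, was measured at 598 and 831 CPM in the mice labelled EC-KO 1 and 2 and at 812 and 571 CPM in those labelled EC-WT 1 and 2. Its mean was 703 CPM ± 138 (SD, n = 4 mice), above 98.8% of the 16408 genes listed. The highest and the lowest mouse differed 1.46-fold, and the groups overlapped, since the mouse labelled EC-KO 1 lay between the 2 mice labelled EC-WT.

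*Icam2*, a constitutive ligand of leukocyte beta-2 integrins, was measured at 480.3 and 495 CPM in the mice labelled EC-KO and at 626 and 495 CPM in those labelled EC-WT (524 ± 68.2 CPM, SD, n = 4). It was the steadiest of the genes across mice, with a 1.30-fold range. *Icam1*, its inducible relative, was measured at 211 and 314 CPM in the mice labelled EC-KO and at 249.6 and 221 CPM in those labelled EC-WT (249 ± 46.2 CPM, SD, n = 4). *Icam1* was lower than *Icam2* in each mouse.

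Of the selectins, *Selp* was abundant and *Sele* was close to the limit of detection. *Selp* was measured at 377 and 347 CPM in the mice labelled EC-KO and at 297 and 498 CPM in those labelled EC-WT (379.9 ± 85.5 CPM, SD, n = 4), with both extremes in mice labelled EC-WT. *Sele* gave 2 and 10 UMIs in the mice labelled EC-KO, 1 UMI in the mouse labelled EC-WT 1, and had no row in the plate of the mouse labelled EC-WT 2, where it was taken as 0. In CPM these were 1.84, 11.7, 1.54 and 0, against limits of 2.76 to 5.30 CPM for a count of 0, so that only the mouse labelled EC-KO 2 lay above its limit.

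Both chemokines with a row were less abundant than the firm-adhesion genes. *Cxcl12* was measured at 105 and 117 CPM in the mice labelled EC-KO and at 103 and 210.2 CPM in those labelled EC-WT (134 ± 51.3 CPM, SD, n = 4), with the mouse labelled EC-WT 2 apart from the other 3. *Cx3cl1* was measured at 42.2 and 23.5 CPM in the mice labelled EC-KO and at 58.6 and 56.5 CPM in those labelled EC-WT (45.2 ± 16.2 CPM, SD, n = 4). Its counts were small, 46, 20, 38 and 32 UMIs in that order.

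Ranked by mean CPM the order was *Vcam1*, *Icam2*, *Selp*, *Icam1*, *Cxcl12*, *Cx3cl1* and *Sele*, on a scale with 1 tag per transcript and so no length term. Each of the 6 steps was tested across the mice with an exact sign-flip permutation test, 2-sided, which cannot go below p = 0.125 with 4 mice, so no step could pass 0.05. The step from *Icam2* to *Selp* was the only one that was not in the same direction in all 4 mice (3 of 4, mean log2 ratio 0.48, exact p = 0.25, Benjamini-Hochberg adjusted over the 6 steps 0.25). The other 5 steps had an exact p = 0.125 (adjusted 0.15), with mean log2 ratios of 0.41 (*Vcam1* over *Icam2*), 0.60 (*Selp* over *Icam1*), 0.94 (*Icam1* over *Cxcl12*), 1.57 (*Cxcl12* over *Cx3cl1*) and 3.97 (*Cx3cl1* over *Sele*, with 0.5 UMIs added). Read against all 16408 listed genes, *Icam2* lay above 98.3%, *Selp* above 97.5%, *Icam1* above 96.1%, *Cxcl12* above 91.8%, *Cx3cl1* above 75.5% and *Sele* above 34.1% of them. Each *Vcam1* UMI was read 5.87 to 13.2 times per mouse and each *Cxcl12* UMI 15.5 to 27.6 times, against 10.0 to 21.3 times over all nuclear genes, and from reads in place of UMIs the mean level was 452 CPM for *Vcam1* and 183 CPM for *Cxcl12*. The 7 genes together made up 1816 and 2138 CPM in the mice labelled EC-KO and 2148 and 2051 CPM in those labelled EC-WT.

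The genes differed in how widely they were spread over cells. *Icam2* had a UMI in 361 of 441 cells (81.9%) and *Vcam1* in 312 (70.7%), followed by *Selp* in 251 (56.9%), *Icam1* in 245 (55.6%), *Cxcl12* in 138 (31.3%), *Cx3cl1* in 72 (16.3%) and *Sele* in 8 (1.81%). With every cell thinned to 1000 UMIs, which all kept cells allowed, the shares were 38.3% (*Vcam1*), 37.4% (*Icam2*), 24.04% (*Selp*), 17.7% (*Icam1*), 8.16% (*Cxcl12*), 4.54% (*Cx3cl1*) and 0.454% (*Sele*). Across mice the thinned share ran from 30.6% to 45.6% for *Vcam1*, from 29.2% to 49.1% for *Icam2*, from 16.7% to 29.2% for *Selp* and from 11.1% to 27.6% for *Icam1*. No thinned share separated the mice by label except that of *Cxcl12*, at 5.73% and 7.14% in the mice labelled EC-KO and 8.77% and 13.9% in those labelled EC-WT, and its exact binomial intervals overlapped between all mice. The thinned shares of 34.6% of the 8385 genes tested between the groups separated by label in the same way.

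**Figure D2:**
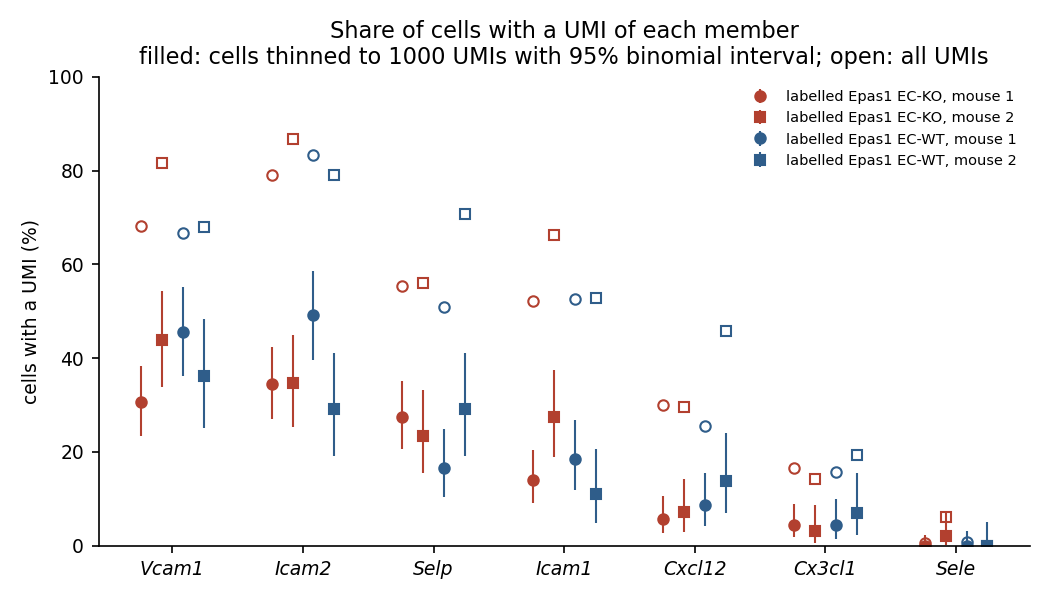
Share of kept cells with at least 1 UMI of each gene, in percent, for each of 4 mice; open symbols use all UMIs, and filled symbols use cells thinned to 1000 UMIs with exact 95% binomial intervals, which cover counting error only. *Icam2* is highest before thinning, at 79.0% to 86.7%, and *Vcam1* and *Icam2* overlap after it.

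*Icam2* was also the most even. The cells in the top 10% for a gene held 32.8% to 35.7% of its UMIs per mouse for *Icam2* and 50.6% to 56.1% for *Vcam1*. For *Selp* they held 50.6% to 55.7%, for *Cxcl12* 57.1% to 75.0% and for *Cx3cl1* 75.0% to 81.6%. Single cells reached 83 UMIs of *Vcam1*, 48 of *Selp*, 26 of *Icam2*, 24 of *Icam1*, 22 of *Cxcl12*, 8 of *Cx3cl1* and 2 of *Sele*.

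Free RNA was gauged in the 480 wells of plate rows L to P, none of which was kept and whose median was 21 to 63 UMIs per well. *Vcam1* had a UMI in 2.08% of these wells, *Icam2* in 2.29%, *Selp* in 1.88%, *Cxcl12* in 1.25% and *Icam1* in 1.04%, while *Sele* and *Cx3cl1* had none. The smooth muscle-rich cells, which passed the same CD31+ sort, held 119.8 CPM of *Vcam1* (exact 95% Poisson interval of the summed count 77.5 to 176.9) against 741 in the other 417 cells. *Icam2* was at 144 against 543 CPM, *Selp* at 134 against 391, *Icam1* at 23.97 against 264, *Cxcl12* at 19.2 against 134 and *Cx3cl1* at 9.59 against 45.5 CPM. After thinning, 16.7% of the smooth muscle-rich cells had a *Vcam1* UMI against 39.6% of the others, 4.17% against 39.3% had one of *Icam2*, and 12.5% against 24.7% had one of *Selp*. With 24 such cells in uneven numbers per mouse and no doublet caller run, these are descriptions without a test and not a measure of free RNA.

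Cells carried a median of 3 of the 7 genes in each mouse at full depth, and of 1 in each mouse when thinned to 1000 UMIs. At full depth, in 191 of 441 cells at least 4 of the 7 genes had a UMI, and in 196 cells both *Vcam1* and *Icam1* did. In 26 cells none did, 15 of which were not smooth muscle-rich. Correlation across the 417 other cells, within each mouse and with depth regressed out, was weak for every pair. The highest mean over the 4 mice was that of *Vcam1* with *Selp* (mean r = 0.21, 0.12 to 0.26 across mice), and the lowest that of *Icam2* with *Cxcl12* (mean r = -0.14, -0.24 to -0.05). *Icam1* with *Icam2* was negative in 4 of 4 mice (mean r = -0.08). These values are across cells that share a library and are given without a test.

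Among the 4173 genes with a UMI in at least 20% of kept cells, the 5 most correlated with each gene were listed in the same way, as a description of weak correlations. For *Vcam1* these were *Vim* (mean r = 0.24), *Nfkbia*, the NF-kB inhibitor (0.23), *Cxcr7* (0.23), the older symbol of *Ackr3*, a scavenging receptor of CXCL12, and then *Snrpe* (0.22) and *Selp* (0.21). For *Selp* they were *Gcnt1* (0.28), a glycosyltransferase of core 2 O-glycans, *Bmp4* (0.27), *Tinagl1* (0.23), *Anxa3* (0.23) and *Ehd4* (0.23). For *Icam1* they were *B4galt1* (0.27), *Pias1* (0.18), *Ace* (0.17), *Alg2* (0.17) and *Ccnl1* (0.17). For *Icam2* they were *Cst3* (0.25), *Myl6* (0.22), *Laptm4a* (0.20), *Vim* (0.20) and *Mfap5* (0.20). For *Cxcl12* they were *Ets2* (0.26), the basement membrane collagens *Col4a1* (0.26) and *Col4a2* (0.23), *Emcn* (0.24) and *B2m* (0.22).

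None of the 6 genes tested differed between mice labelled EC-KO and EC-WT past the spread between mice. The UMIs of each mouse were added up and tested with edgeR's quasi-likelihood method over 8385 genes with Benjamini-Hochberg adjustment, and 0.119% of them (10 genes) were called at an adjusted p of 0.05. Of the members, 6 passed the filter on low counts and none was called. The largest difference was that of *Cx3cl1*, with a log2 fold change of -0.74 (SE 0.35, edgeR unadjusted p = 0.056, adjusted p = 0.757). It was -1.27 without the mouse labelled EC-KO 1 and -0.38 without that labelled EC-KO 2, called in neither. *Cx3cl1* was also the only one of the 6 whose groups did not overlap, at 42.2 and 23.5 CPM against 58.6 and 56.5 CPM, and the groups of 36.4% of all tested genes did not overlap. *Cxcl12* had a log2 fold change of -0.45 (SE 0.29, edgeR adjusted p = 0.837).

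The adhesion molecules lay close to 0. The log2 fold changes, EC-KO over EC-WT as labelled, were 0.07 for *Vcam1* (SE 0.22, edgeR adjusted p = 0.980), 0.18 for *Icam1* (SE 0.21, adjusted p = 0.918), -0.17 for *Icam2* (SE 0.19, adjusted p = 0.918) and -0.09 for *Selp* (SE 0.23, adjusted p = 0.976). *Sele* did not pass the filter. With no filter its fitted log2 fold change was 2.80 (SE 1.49, edgeR adjusted p = 0.889) and with read counts 3.48 (SE 1.96, adjusted p = 0.826), values that rest on 12 against 1 UMIs, 10 of them in 1 mouse, and depend on the prior count. The mice labelled EC-KO 2 and EC-WT 1 were sequenced on the same flow cell by the names of the deposit, and each of the other 2 was alone on its own. Within that pair the log2 ratio was 0.03 for *Vcam1*, 0.33 for *Icam1*, -0.34 for *Icam2*, 0.22 for *Selp*, 0.18 for *Cxcl12* and -1.30 for *Cx3cl1*, as values with no test, and *Selp* and *Cxcl12* turned sign. The 10 called genes were all higher in the mice labelled EC-KO and are led by the smooth muscle genes *Tagln*, *Myh11* and *Myl9*. Without the smooth muscle-rich cells edgeR called 0 genes, with 445 at an unadjusted p under 0.05.

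**Figure D3:**
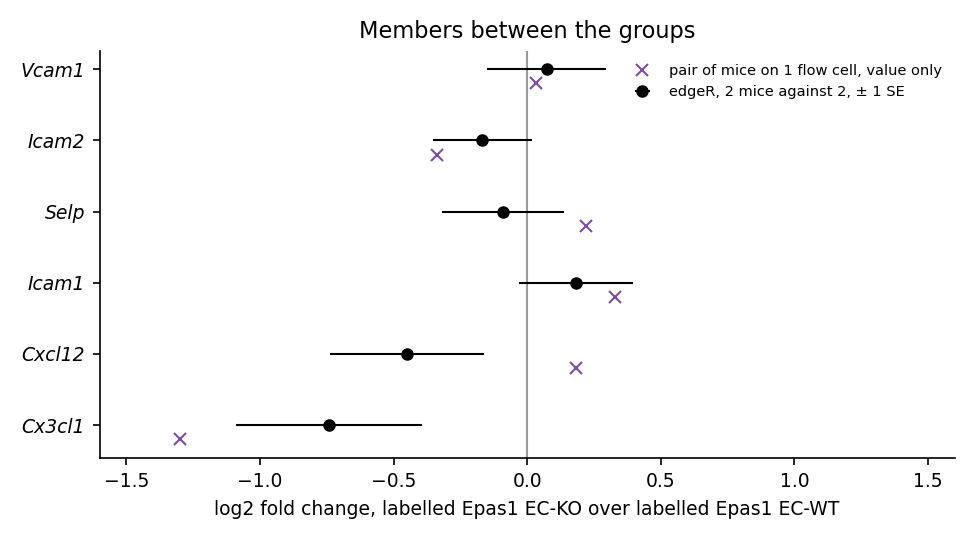
Log2 fold change of each tested gene between mice labelled EC-KO and EC-WT; black points are edgeR estimates from 2 mice against 2 with bars of 1 SE, and crosses are the ratio within the pair of mice on 1 flow cell, with no error. *Cx3cl1* has the lowest estimate (-0.74), and the cross of *Selp* (0.22) and of *Cxcl12* (0.18) lies on the other side of 0 from its point.

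The clearest differences were between cells of the same mice. A small population of 34 cells (11, 4, 12 and 7 in the order of the mice above) carried at least 3 UMIs and 1000 CPM of *Cd36*, a fatty acid transporter, and *Fabp4*, a fatty acid-binding protein, and these are called lipid-handling cells. They were compared with the 383 remaining cells outside the smooth muscle-rich ones, with the mouse as a block. In this comparison *Vcam1* and *Selp* were lower and *Cxcl12* was higher in lipid-handling cells. These 3 of the 6 members tested were called by edgeR, against 5.09% of the 4974 genes tested (253 genes).

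*Vcam1* was measured at 202, 631, 78.4 and 330 CPM in the lipid-handling cells of the 4 mice and at 661, 951, 884 and 599.8 CPM in their other cells. It was lower in 4 of 4 mice, with a log2 difference of -1.51 (SE 0.29, edgeR adjusted p = 0.000487). It was called with each mouse left out. In cells thinned to 1000 UMIs it was not called (log2 difference -0.96, edgeR adjusted p = 0.130).

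*Selp* was measured at 249, 192, 157 and 203 CPM in lipid-handling cells and at 396, 400.1, 313 and 531 CPM in the others, again lower in 4 of 4 mice, and no mouse's lipid-handling cells reached the level of any mouse's other cells. The log2 difference was -1.05 (SE 0.28, edgeR adjusted p = 0.0211). The call was lost without the mouse labelled EC-KO 2 (-1.04, adjusted p = 0.0939), EC-WT 1 (-1.06, adjusted p = 0.102) or EC-WT 2 (-0.97, adjusted p = 0.107), with thinned cells (-0.62) and with DESeq2 (adjusted p = 0.101).

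*Cxcl12* was measured at 607 and 431 CPM in the lipid-handling cells of the mice labelled EC-KO 1 and EC-WT 1, against 80.0 and 72.8 CPM in their other cells. In the mouse labelled EC-KO 2 it was at 137 against 131 CPM, and in that labelled EC-WT 2 at 152 against 219.5 CPM, so 2 mice carried the difference. The log2 difference was 1.49 (SE 0.42, edgeR adjusted p = 0.0288). It was not called without the mouse labelled EC-KO 1 (0.76, adjusted p = 0.513) or EC-WT 1 (1.08, adjusted p = 0.454), with DESeq2 (1.40, adjusted p = 0.112) or with no filter on low counts (1.12, adjusted p = 0.0656), and without that labelled EC-WT 2 it was 2.02 (adjusted p = 0.00046). *Cxcl12* had a UMI in 20 of the 34 cells, but 5 cells with 11, 9 and 8 UMIs (mouse labelled EC-KO 1) and 11 and 7 UMIs (EC-WT 1) held 46 of the 72 UMIs.

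*Icam2* was lower in the lipid-handling cells of 4 of 4 mice and was not called (log2 difference -0.62, SE 0.23, edgeR adjusted p = 0.159). It was called with a class limit of 6 UMIs (-0.80, adjusted p = 0.0411) and with no filter on low counts (-0.99, adjusted p = 0.00856). With no filter the median log2 difference over all genes tested was -0.75, against -0.094 in the main fit. In cells thinned to 1000 UMIs *Icam2* was not called (-0.095, edgeR adjusted p = 0.953). In the main fit *Icam1* (-0.28, SE 0.30, edgeR adjusted p = 0.807) and *Cx3cl1* (-0.44, SE 0.72, adjusted p = 0.887) were not called either. The 13 UMIs of *Sele* all lay outside the lipid-handling cells. Many other endothelial genes differed too. Beside *Cd36* and *Fabp4*, the genes with the lowest adjusted p included *Lrg1* (log2 difference 6.71, SE 0.30, edgeR adjusted p = 5.49e-18), *Nr2f2*, a transcription factor of venous endothelial identity (5.50, SE 0.46, adjusted p = 2.32e-10), *Emcn*, a sialomucin of venous and capillary endothelium (2.70, SE 0.23, adjusted p = 3.55e-10), and *Nrp2*, a receptor of venous and lymphatic endothelium (6.31, SE 0.62, adjusted p = 6.77e-09). The transcription factor gene *Meox2* (6.74) and the water channel gene *Aqp1* (2.67) were higher as well, and *Fn1*, which encodes fibronectin, was lower (-2.49). *Pecam1* was lower (log2 difference -0.78, SE 0.15, edgeR adjusted p = 0.000574), whereas *Vwf*, which makes the von Willebrand factor of Weibel-Palade bodies, was higher (1.23, SE 0.17, adjusted p = 5.18e-06). The class thus differs from the other cells in many genes, and the differences of *Vcam1*, *Selp* and *Cxcl12* cannot be told apart from that wider difference. The summed endothelial list was higher in lipid-handling cells in 4 of 4 mice (11850 to 18211 against 11358 to 14803 CPM). The smooth muscle list was higher in 4 of 4 (274 to 1820 against 199.9 to 913 CPM) and the fibroblast list lower in 4 of 4 (203 to 1400 against 1274 to 2730 CPM). The immune list had no UMI in lipid-handling cells. The median mitochondrial share was 10.8%, 8.24%, 7.05% and 12.99% in lipid-handling cells and 6.04%, 9.52%, 7.43% and 8.45% in the others, and their depth was lower in 3 of 4 mice (2977 to 9326 against 3970 to 7335 UMIs at the median). The part of these lists, of the mitochondrial share and of depth in the result was not tested beyond thinning.

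**Figure D4:**
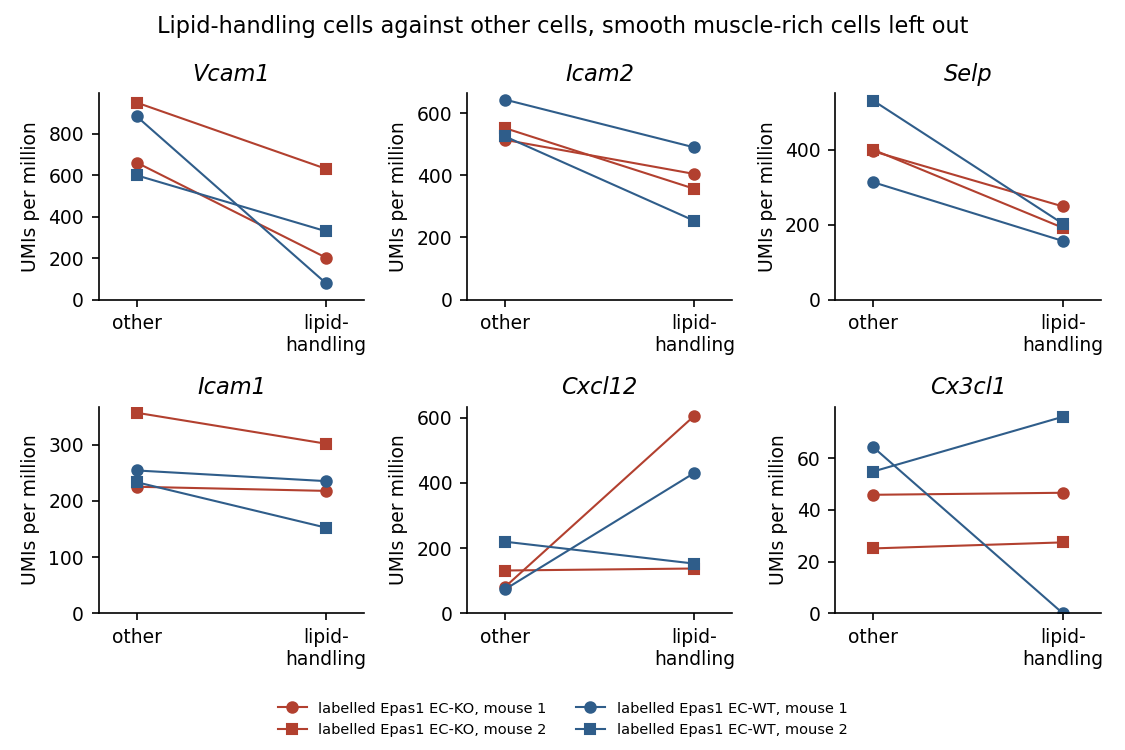
Level of the 6 tested genes in CPM in lipid-handling cells and in other cells of the same mouse, smooth muscle-rich cells left out; each line joins the 2 values of 1 mouse. *Vcam1*, *Selp*, *Icam2* and *Icam1* are lower in the lipid-handling cells on every line, and *Cxcl12* is highest in the lipid-handling cells of 2 mice, at 607 and 431 CPM.

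A single well bears on *Cxcl12*. A well in row A of the plate labelled EC-WT 2 held 52 *Cxcl12* UMIs among 3638 (14294 CPM), against at most 22 UMIs and 7038 CPM in any kept cell. It was left out because 25.7% of its UMIs were mitochondrial, just over the limit of 25%. It carried 85 UMIs of *Cd36* and *Fabp4* and 27 of the endothelial list, and none of *Vcam1*, *Icam1*, *Icam2* or *Selp*. Of all *Cxcl12* UMIs on that plate 35.0% lay outside kept cells, against 0% to 5.63% on the other 3 plates. With the well included, the fitted log2 difference of *Cxcl12* in lipid-handling cells was 2.22 and that between the groups -0.81. These are values with no test, since the well was singled out for its *Cxcl12* count and was the only one added of the 10 wells over the limit.

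**Figure D5:**
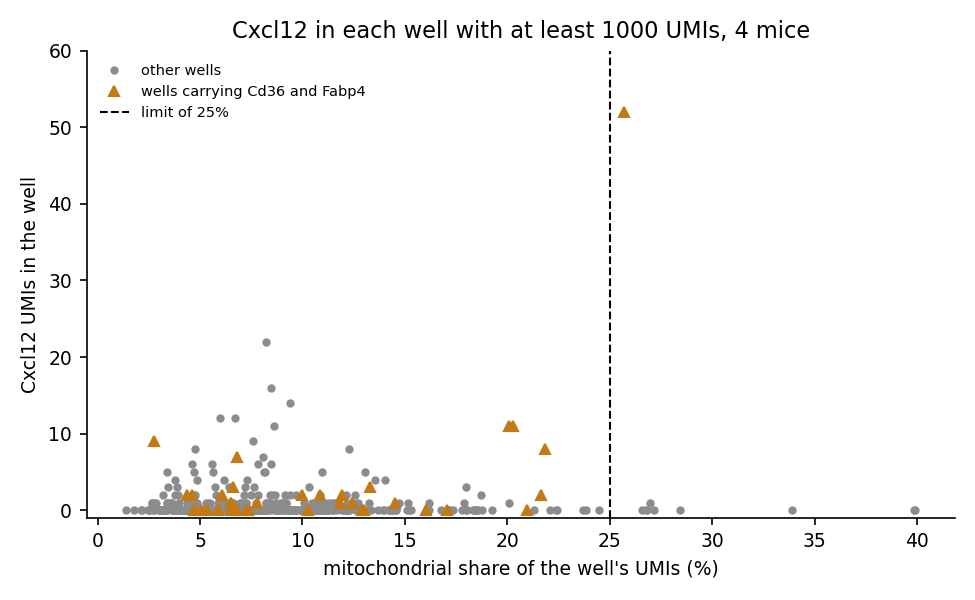
*Cxcl12* UMIs in each well with at least 1000 UMIs against the mitochondrial share of the well in percent, over 4 mice; triangles are wells carrying *Cd36* and *Fabp4* by the class limits, dots the other wells, and the dashed line the limit of 25%. The highest point, at 52 UMIs, lies just to the right of the line.

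Fibroblast transcripts in the sorted cells were examined in 2 ways. Cells with at least 3 UMIs of the fibroblast list, with no CPM limit, numbered 298, against 85 without. They were deeper (medians of 5721 to 8092 against 1635 to 2671 UMIs per cell), and the part of depth in this split was not tested beyond thinning. None of the 6 members was called in it, against 0.299% of 5012 genes. The log2 differences ran from -0.44 (*Cx3cl1*, SE 0.57) to 0.40 (*Cxcl12*, SE 0.42). With a class limit of 6 UMIs, *Vcam1* was called as higher (0.61, SE 0.15, edgeR adjusted p = 0.0439). A narrower class, chosen after seeing the data, took the 38 cells with at least 3 UMIs of *Dcn* and *Lum*, proteoglycan genes of fibroblasts, against the other 345.

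*Cxcl12* was higher in the *Dcn*- and *Lum*-carrying cells of 4 of 4 mice, at 149, 263, 198 and 413 CPM against 66.4, 119.6, 54.4 and 196 CPM. Its log2 difference was 1.30 (SE 0.28, edgeR adjusted p = 0.0186), the only call among the 6 members, and 0.441% of 5213 genes were called. Without each mouse in turn it was 1.15 to 1.40 and was not called, with adjusted p from 0.0517 to 0.189, and with no filter it was 1.11 (adjusted p = 0.0554). With no filter the median log2 difference over all genes tested was -0.42, against -0.024 in the main fit. *Icam1* stood at 0.53 (SE 0.23, adjusted p = 0.594) and *Icam2* at -0.37 (SE 0.19, adjusted p = 0.784). In these cells the endothelial list was lower in 4 of 4 mice (9339 to 14009 against 11755 to 14872 CPM) and the fibroblast list higher (2234 to 9131 against 1133 to 1586 CPM). The cells were deeper too, with medians of 6737 to 10010 UMIs against 3863 to 6910. The part of depth and of these lists in the result was not tested.

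The flow-responsive transcription factors *Klf2* and *Klf4* split the 383 cells at their median, within bins of depth, into a high set (187 cells) and a low set (196 cells). KLF2 and KLF4 are induced by steady laminar flow and dampen inflammatory adhesion molecules in textbook accounts. None of the 6 members was called between the sets, against 0.587% of 5448 genes. *Vcam1* was at 848, 939, 1032 and 555 CPM in the high set and 457, 961, 728 and 645 CPM in the low set, higher in 2 mice and lower in 2 (log2 difference 0.26, SE 0.14, edgeR adjusted p = 0.647). *Selp* was lower in the high set in 4 of 4 mice (-0.40, SE 0.13, adjusted p = 0.245) and *Icam2* higher in 4 of 4 (0.14, SE 0.12, adjusted p = 0.820). In thinned cells *Selp* was -0.040 (edgeR adjusted p = 0.980), *Icam2* 0.063 (adjusted p = 0.980) and *Vcam1* 0.44 (adjusted p = 0.434). *Cxcl12* was lower in 3 of 4 (-1.11, SE 0.33, adjusted p = 0.156). It was called without the mouse labelled EC-WT 1, the one in which it was higher (-1.66, edgeR adjusted p = 0.00312), and with no filter on low counts (-1.11, adjusted p = 0.000894), and ran from -1.66 to -0.69 with 1 mouse left out. With DESeq2 it was -1.03 (adjusted p = 0.962). The member of the wider lists that was called was *Nfkbia*, higher in the high set (0.79, SE 0.14, edgeR adjusted p = 0.00664). The immediate early genes, which gave the next split, were together higher in the high set in 4 of 4 mice (967 to 2474 against 634 to 1139 CPM). Their part in these differences was not tested.

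Immediate early genes such as *Fos*, *Jun* and *Egr1*, which are induced within minutes by stimuli that include tissue dissociation, gave another split into a high set of 187 and a low set of 196 cells. The high set also held more *Klf2* and *Klf4* in 4 of 4 mice (together 1233 to 3440 against 906 to 2084 CPM), so the splits were not independent. None of the 6 members was called, against 0.243% of 5356 genes. *Selp* came nearest: it was at 395, 272, 198 and 368 CPM in the high set and 396, 514, 416 and 685 CPM in the low set, lower in 4 of 4 mice with nearly equal values in the mouse labelled EC-KO 1 (log2 difference -0.70, SE 0.16, edgeR adjusted p = 0.0791). It was called without the mouse labelled EC-KO 1 (-0.98, edgeR adjusted p = 0.00372) and with no filter on low counts (-0.71, adjusted p = 0.000273), and was -0.18 in thinned cells (adjusted p = 0.921). *Cxcl12* was lower in the high set in 4 of 4 mice (-0.91, SE 0.23, adjusted p = 0.190) and was called with no filter (-0.92, edgeR adjusted p = 0.0243). *Vcam1* was lower in 3 of 4 mice (-0.32, SE 0.12, edgeR unadjusted p = 0.0166, adjusted p = 0.825). *Icam1* (0.0037, SE 0.16, adjusted p = 1) and *Icam2* (0.10, SE 0.12, adjusted p = 0.984) lay within 1 SE of 0.

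Genes of the same process gave the setting. Of 23 other adhesion and transmigration genes, 21 had a row and 15 reached 20 CPM. The highest were *Pecam1* (5269 ± 889 CPM, SD, n = 4), the sialomucins *Cd34* (737 ± 59.4 CPM) and *Podxl* (664 ± 129 CPM), *Bsg* (606 ± 82.9 CPM), and the junctional proteins *Jam2* (614 ± 94.8 CPM), *Esam* (599.5 ± 87.6 CPM), *Cdh5* (468 ± 109 CPM) and *F11r* (467 ± 88.6 CPM). *Cd44*, a hyaluronan receptor, was uneven, at 31.2, 17.6, 20.03 and 139.6 CPM in the order of the mice. None of the 17 genes tested was called between the groups, against 0.119% of all genes tested. Their median log2 fold change was -0.11 against -0.0053 over all genes. The list also holds *Vezf1*, a transcription factor gene and not an adhesion gene (127 ± 20.9 CPM), and without it, a choice made after seeing the data, 20 of 22 genes had a row, 14 reached 20 CPM and none of 16 was called between the groups. In lipid-handling cells 3 of 14 were called (3 of 13 without *Vezf1*), against 5.09% of all genes tested: *Pecam1* and *Podxl* (-0.74, SE 0.22, edgeR adjusted p = 0.0430) were lower and *Jam2* (0.77, SE 0.20, adjusted p = 0.0140) was higher.

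Other chemokines were scarce. Of 38 chemokines, colony-stimulating factors, interleukins and decoy receptors, 20 had a row and 4 reached 20 CPM. These were *Cxcr7* (*Ackr3*, 363 ± 44.0 CPM), *Csf1* (136 ± 52.3 CPM), *Cxcl16*, another membrane-anchored chemokine (57.0 ± 6.57 CPM), and *Ccrl1* (*Ackr4*, 37.8 ± 8.09 CPM), each as SD over 4 mice. None of the 6 tested was called between the groups, against 0.119% of all genes tested. Here 1 of 6 lay above 0, against 49.4% of all genes tested. The median log2 fold change of the 6 was -0.57 against -0.0053 over all genes. None of 4 was called in lipid-handling cells, against 5.09% of all genes tested. There 1 of 4 lay above 0, against 43.2% of all genes tested, and the median was -0.62 against -0.094.

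Receptors and regulators of cytokine signaling were broadly measured. All 33 genes of the NF-kB and cytokine list had a row and 26 reached 20 CPM, led by *Il6st*, the shared receptor chain of the interleukin-6 family (433 ± 107 CPM), *Nfkbia* (404 ± 84.9 CPM), *Stat3* (244 ± 40.7 CPM) and *Tnfrsf1a*, a receptor of TNF (222 ± 15.1 CPM). None of the 28 tested was called between the groups (median log2 fold change -0.074), against 0.119% of all genes tested. In lipid-handling cells 2 of 19 were called, against 5.09% of all genes tested, both higher: *Il6st* (1.56, SE 0.19, edgeR adjusted p = 6e-07) and *Il4ra* (1.50, SE 0.43, adjusted p = 0.0341).

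The leukocyte partners of the adhesion molecules were nearly absent from the sorted cells. Of 10 counter-receptor genes 7 had a row, and only *Itga4*, the alpha chain of VLA-4, reached 20 CPM (74.3 ± 22.2 CPM, SD, n = 4). *Cx3cr1*, the receptor of CX3CL1, gave 17 UMIs and *Selplg*, the ligand of P-selectin on leukocytes, gave 1 UMI. By contrast all 10 genes for anchoring, shedding and storage of the molecules reached 20 CPM. They were led by *Vwf* (1750.0 ± 263 CPM), the membrane-to-actin linkers *Msn* (330.2 ± 39.5 CPM) and *Rdx* (314 ± 31.9 CPM), the sheddase *Adam10* (325 ± 27.7 CPM) and *Cd63*, a Weibel-Palade body membrane protein (237 ± 33.2 CPM). None of the 10 was called between the groups, against 0.119% of all genes tested. In lipid-handling cells 1 of 10 was called, *Vwf* as higher, against 5.09% of all genes tested.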

How the data were processed

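Single CD31+ CD45- TO-PRO-3- cells of 4 aortas were measured by SORT-seq, 1 plate per mouse. For each plate the authors deposited UMI counts, read counts with duplicates, and estimated counts of transcripts (UMI counts corrected for identifier saturation), none normalized or restricted to cells. The submitters' processing notes list BWA 0.7.15, Seurat and GRCm38/mm10. UMI counts were used, with read counts and the rounded estimated counts as alternatives. Spike-in and mitochondrial rows were left out of totals, and no per-sample column was without a sample.

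Wells with at least 1000 UMIs and at most 25% mitochondrial UMIs were kept; no doublet caller was run, and an alternative dropped every cell with more than 3 times the median UMIs of its mouse. UMIs were summed per mouse, or per mouse and class with at least 3 cells, and tested with edgeR 4.0.16 in R 4.3.3 (TMM, its filter on low counts, quasi-likelihood F test; mouse as a block within classes), with Benjamini-Hochberg adjustment over all genes and a threshold of 0.05. DESeq2 1.42.0 was the alternative, an SE is the absolute log2 fold change over the root of F, and other values came from Python 3.11.15 with numpy 2.4.6, pandas 2.3.3, scipy 1.17.1 and matplotlib 3.10.9. Exact 2-sided permutation tests of 2 mice against 2 cannot go below p = 0.333, and were not used between the groups. Whole libraries were the replicates, each a mouse. The high and low sets were cut at the median within 3 depth bins per mouse. Intervals are at 95%, and with the limit of 3 UMIs for a count of 0 they cover counting error only. Log-normalization for correlations was to 10000 UMIs per cell. The fits of the 6 main comparisons were tested on simulated data with 200 changed genes each, and the alternatives were not.

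Named are the members, listed genes that were called or at 20 CPM or more (the highest are given), and the 5 genes most correlated with each member that had a UMI in at least 20% of cells. The members, gene lists, classes and tests were chosen with earlier results of these data known. *Cx3cr1*, *Selplg*, the called smooth muscle genes and the leading genes of the lipid-handling cells were named after their values were seen.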

Additional observations from a re-analysis of the deposited data

Results flagged for a closer look

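Of 30 combinations of 6 genes and 5 classes, 3 had opposite directions in the mice of the 2 labels, with no test of the difference. Over all genes tested in these classes the share was 11.6%, so the count is close to the background and is not a result about these genes. *Icam2* was higher in the fibroblast marker-carrying cells of both mice labelled EC-KO and lower in those of both mice labelled EC-WT, with mean log2 ratios that differed by 0.363. *Cx3cl1* did the same in that class, with a difference of 1.77, and in the *Klf2* and *Klf4* high set, with a difference of 2.01. The counts behind *Cx3cl1* were small: 111 UMIs in the fibroblast marker-carrying cells and 16 outside them, and 55 in the high set against 72 in the low set, over 4 mice. The ratios have 0.5 UMIs added. In the fibroblast marker-carrying cells the mouse labelled EC-KO 1 had a *Cx3cl1* log2 ratio of only 0.010, with 4 UMIs outside the class, and that labelled EC-KO 2 had 0 UMIs outside it. None of these 3 differences was tested.

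The well with 52 *Cxcl12* UMIs in the plate labelled EC-WT 2 stands out as a signal in a well that the comparisons leave out. It exceeded the highest kept cell, at 22 UMIs, and 9 other wells with at least 1000 UMIs over the mitochondrial limit held at most 1 *Cxcl12* UMI each.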

How the results depend on the processing

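Between the groups, edgeR called 10 genes as reported, 8 with a replicate block, 115 with no filter on low counts, 22 with at least 2000 UMIs per cell, 17 with no mitochondrial limit and 2 in the other endothelial cells alone. It called 0 with read counts (826 at an unadjusted p under 0.05), 0 without smooth muscle-rich cells (445) and 0 without cells over 3 times the median UMIs (461), and 4 to 129 with 1 mouse left out. Mice with the same number did not deviate together (r = -0.03 over 6688 genes), so the numbers only name them. No member was called between the groups under any alternative. Directions turned for *Vcam1* (-0.71 in other endothelial cells alone, -0.15 thinned), *Selp* (0.13 with read counts, 0.23 without cells over 3 times the median, 0.50 thinned, 0.22 on 1 flow cell) and *Cxcl12* (0.18 on 1 flow cell). With 1 mouse left out the ranges were -0.18 to 0.37 (*Vcam1*), -0.35 to 0.033 (*Icam2*), -0.40 to 0.30 (*Selp*), -0.088 to 0.43 (*Icam1*), -0.87 to 0.11 (*Cxcl12*) and -1.27 to -0.38 (*Cx3cl1*).

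In lipid-handling cells 253 genes were called, 417 with no filter, 72 thinned (fewer genes tested) and 160 to 288 with 1 mouse left out. *Vcam1* was -0.96 thinned. *Selp* was -1.01 with DESeq2, -0.62 thinned and -1.27 to -0.97 with 1 mouse left out. The call of *Cxcl12* was lost with DESeq2 (1.40) and with no filter (1.12), and it ran from 0.76 to 2.02 with 1 mouse left out, and could not be fitted in thinned cells. With no filter the median over all genes tested was -0.75, against -0.094 in the main fit, so values of the 2 fits differ by this shift too. *Cx3cl1* ran from -0.89 to 0.17 with 1 mouse left out. Without the highest cell of each class and mouse, *Cxcl12* was higher in 3 of 4 mice. In fibroblast marker-carrying cells 15 genes were called, 4 with DESeq2, 6 thinned, 41 with a limit of 6 UMIs, 23 with *Dcn* and *Lum*, and 6 to 19 with 1 mouse left out. *Vcam1* turned to -0.17 with *Dcn* and *Lum* and ran from -0.0012 to 0.66 with 1 mouse left out; *Icam2* was -0.092 thinned and -0.37 with *Dcn* and *Lum*, *Selp* -0.043 with *Dcn* and *Lum*, and *Cx3cl1* 0.056 with a limit of 6 UMIs. Between the *Klf2* and *Klf4* sets 32 genes were called, 17 with DESeq2, 80 with no filter, 16 thinned and 19 to 32 with 1 mouse left out. Between the immediate early sets 13 were called, 27 with no filter and 2 thinned; thinned, *Vcam1* was 0.0064 and *Icam2* -0.052, and *Icam1* was -0.0070 with no filter and -0.15 to 0.19 with 1 mouse left out. Levels from read counts were 452 CPM for *Vcam1*, 367 CPM for *Icam2* and 26.8 CPM for *Cx3cl1*. The cause of these shifts was not tested. Depth limits *Sele*, whose 0 to 10 UMIs lay above the limit for a count of 0 in 1 mouse only.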
